A study of Mus musculus with 36 samples.

Results

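Loss of AGO2 was followed in mouse T helper 2 (Th2) cells by counting miRNAs in 7 small RNA libraries, 4 from AGO2 knockout cells and 3 from Cre control cells, out of 36 libraries in the series. The libraries were chosen by their labels alone: the knockout cells are CD4Cre;R26LSLeYFP;AGO2f/f (libraries D, E, F and G) and the controls CD4Cre;R26LSLeYFP (libraries A, B and C). Both groups carry the CD4-Cre driver, which recombines floxed alleles in T cells from the CD4+ stage on, and the eYFP reporter at R26, so they differ in the floxed Ago2 alleles. The cells came from spleens of C57BL/6J mice, were sorted as CD4+ TCRb+ and were cultured under Th2 conditions; the sample labels give day 5 and the series text gives 7 days. The series also holds naive cells of the same 2 genotypes and a separate experiment on cells without AGO1, AGO3 and AGO4. Counts of miRNAs do not measure Ago2 itself, so the deletion was not checked, and cells that kept an allele would be part of the knockout libraries. The labels do not say that libraries come from separate animals, and p-values then measure only the spread between these samples.

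Argonaute proteins hold the mature miRNA and take it to target mRNAs through the seed, bases 2 to 8 of the miRNA. A hairpin precursor gives a 5p and a 3p arm, of which the guide is kept in Argonaute and the passenger is usually discarded and short-lived. All mammalian members of the AGO family load miRNAs, and AGO2 is the one with strong slicing activity. Naive T cells carry much miR-150 and miR-26, which fall when the cells are activated, while miR-155, miR-21, miR-182 and miR-132 are known to be induced.

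Sequences of some of the miRNAs described in the text are printed 5′ to 3′ with the seed in capitals (RefSeq, GRCm38.p6; 116 of 153 tested names had an entry). The first set holds passenger arms that stood far higher in the knockout and the regular partner of miR-25-5p.
miR-25-5p: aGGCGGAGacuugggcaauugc
miR-25-3p: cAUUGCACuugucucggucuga
miR-210-5p: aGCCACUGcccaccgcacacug
miR-92a-1-5p: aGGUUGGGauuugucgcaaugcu
The second set is shown because miRNAs with the same seed moved in opposite directions.
miR-181a-5p: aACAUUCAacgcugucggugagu
miR-181d-5p: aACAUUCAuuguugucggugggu
miR-30e-5p: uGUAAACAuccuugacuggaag
miR-30c-5p: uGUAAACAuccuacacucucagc
miR-92a-3p: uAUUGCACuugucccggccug
miR-363-3p: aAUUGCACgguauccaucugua
The third set holds miRNAs that were lower, 2 pairs of them with a shared seed. It also holds miR-296-3p, the genomic neighbour of miR-298-5p, which was higher, and miR-130b-3p, which has the seed of miR-130a-3p and miR-301a-3p and was not called.
miR-298-5p: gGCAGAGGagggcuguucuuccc
miR-296-3p: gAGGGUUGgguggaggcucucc
miR-132-3p: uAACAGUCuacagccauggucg
miR-212-3p: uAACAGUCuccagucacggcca
miR-130a-3p: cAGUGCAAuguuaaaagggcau
miR-301a-3p: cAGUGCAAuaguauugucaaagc
miR-130b-3p: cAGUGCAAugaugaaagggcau

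Before the results, 1 library has to be set apart. Knockout libraries held 11218 to 40720 miRNA counts and Cre libraries 39794 to 58357, and they detected 214 to 351 and 354 to 420 miRNAs. Library E, the shallowest, gave 52.3% of its miRNA counts to miR-5099, against 9.85% to 21.4% in the other 6 libraries. Values are counts per 1000000 miRNA counts (CPM) after TMM scaling, which centres each library on its typical miRNA. A count of 3, the upper limit where 0 counts were read, equals 51.4 to 75.4 CPM per Cre library and 73.7 to 267 CPM per knockout library before that scaling, for counting error only.

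The miRNA set of AGO2 knockout Th2 cells was rearranged in both directions. edgeR's quasi-likelihood test with Benjamini-Hochberg adjustment called 79 of 153 tested miRNAs (51.6%) at an adjusted p under 0.05, 37 higher (24.2%) and 42 lower (27.5%). Of the called miRNAs, 61 differed by at least 2-fold, 28 higher and 33 lower. To be tested, a miRNA had to reach 251 CPM before TMM scaling in at least 3 libraries. A scarce miRNA could therefore enter through the group where it was high, and its direction follows in part from this selection. Knockout and Cre libraries did not overlap for 79 of the 153 (51.6%), and 73 of the called miRNAs were among these. Leaving out library E gave 87 calls, 76 of them among the 79. Thinning every library to the depth of library E, an alternative chosen after the data were seen, left 82 miRNAs to test and 31 calls, all among the 79. These directions are relative to the typical miRNA, since the median log2 fold change over the 153 was 0.02. With library size alone as the scale that median was -0.30, and 24 were called higher and 50 lower.

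**Figure D1:**
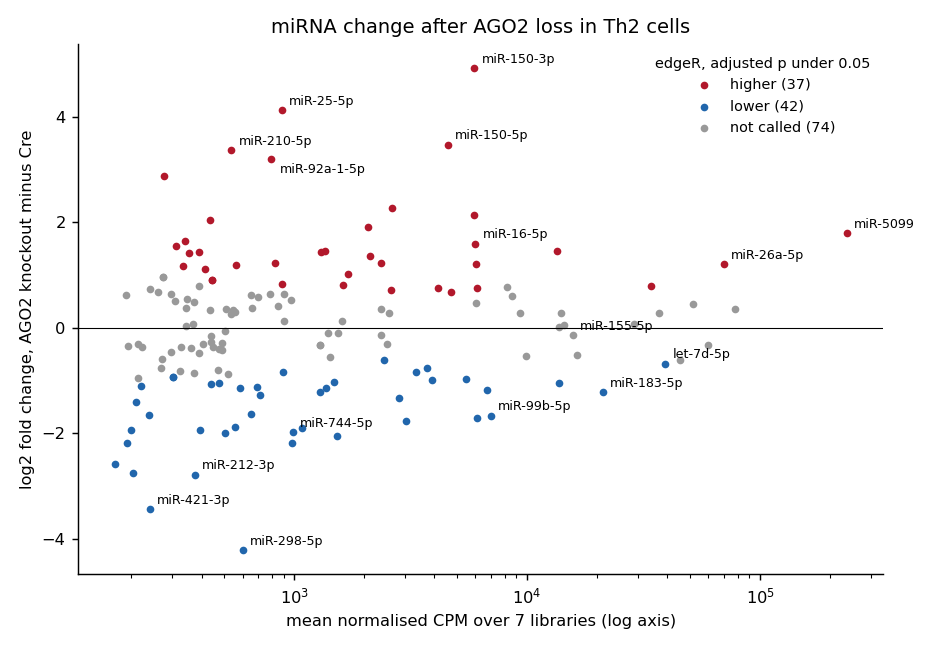
Log2 fold change of 153 tested miRNAs (knockout minus Cre, vertical axis) against mean normalised CPM over the 7 libraries (horizontal log axis), coloured by the edgeR call. Called miRNAs appear at all levels, with miR-150-3p at 4.92 and miR-298-5p at -4.22 as the ends of the range.

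The files hold another scale. They count 9 rows named STD, whose nature the labels do not state, and these took 52.8% to 64.8% of all counts in the knockout and 32.0% to 38.5% in Cre. On the log2 scale, miRNA counts per STD count were 0.39, 0.78 and 0.48 in Cre libraries A, B and C. In knockout libraries D, E, F and G they were -0.98, -1.10, -1.06 and -0.51. All knockout libraries lay below all Cre libraries, with means of -0.91 ± 0.27 and 0.55 ± 0.21 (SD, n = 4 and 3), a ratio of 0.363. The two-sided exact permutation test gave p = 0.0571, the smallest that 4 against 3 libraries allow. In bulk samples fewer cells and less miRNA per cell cannot be told apart. With the STD rows as the scale, the median log2 fold change of the 153 became -1.74, and edgeR called 5 higher and 113 lower. The 5 that stayed higher were miR-150-3p, miR-150-5p, miR-25-5p, miR-210-5p and miR-92a-1-5p. Directions given in the following text are therefore relative to the other miRNAs, except for these 5 and for the miRNAs that were lower on both scales.

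**Figure D2:**
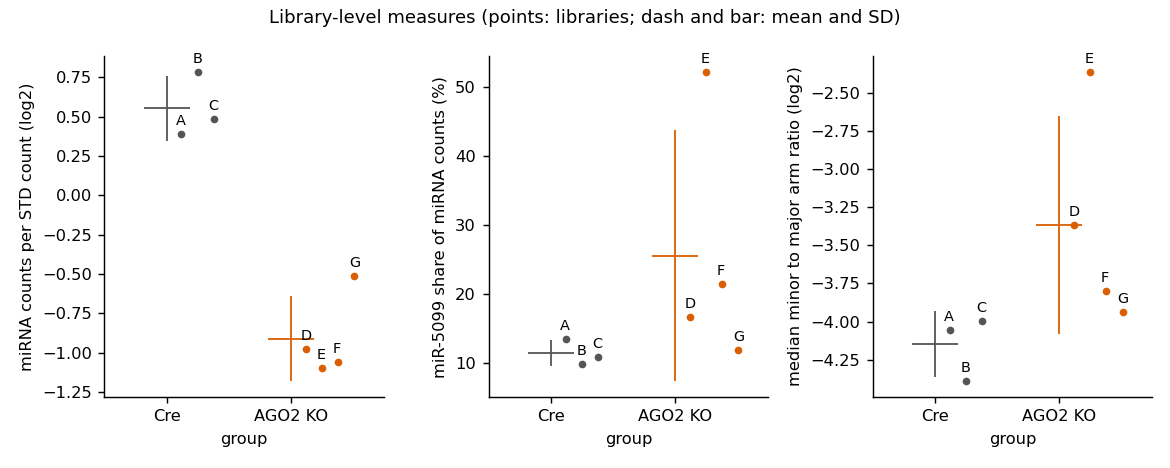
Values for each library (letters) with mean and SD by group: log2 miRNA counts per STD count, miR-5099 share of miRNA counts in percent, and the median log2 ratio of the arms (minor to major). The 4 knockout libraries lie at -0.51 or lower in the left panel, and library E stands apart in the other panels.

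The rise of miR-150 was the largest change. This miRNA, a marker of resting lymphocytes that represses Myb, was read from both arms. miR-150-3p (MIMAT0004535) stood at 368, 335 and 273 CPM in Cre libraries A, B and C and at 9236, 11954, 10351 and 9040 CPM in knockout libraries D, E, F and G. Every knockout library was more than an order of magnitude above every Cre library. The difference was 30.3-fold (log2 fold change 4.92 ± 0.27 SE, adjusted p = 6.29e-11 by edgeR). miR-150-5p (MIMAT0000160), the arm usually taken as the functional one, stood at 752, 698 and 547 CPM against 5609, 8309, 9648 and 6411 CPM. Its rise was 11.1-fold (log2 fold change 3.47 ± 0.27 SE, adjusted p = 1.09e-08 by edgeR), again with no overlap. The order of the arms turned with genotype: the 5p arm had 123 counts and the 3p arm 60 in the Cre libraries, and 842 and 1100 in the knockout.

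Passenger arms of 3 hairpins formed the next tier, and each came from a different locus. None reached the cut of 251 CPM in any Cre library, so all 3 were tested only through the knockout, where they are high. Arms selected in this way do not show whether passenger arms in general rose. miR-25-5p, opposite the abundant miR-25-3p within Mcm7 (hairpin at chr5:138165321-138165404, minus strand), stood at 92, 84 and 91 CPM in Cre and 1687, 875, 1622 and 1760 CPM in the knockout. That was a 17.4-fold difference (log2 fold change 4.12 ± 0.33 SE, adjusted p = 1.27e-08 by edgeR). miR-25-3p, which shares its precursor, was at 30114, 32969 and 35950 against 46009, 39796, 30863 and 42398 CPM (log2 fold change 0.27, edgeR adjusted p = 0.363). The knockout libraries did not overlap Cre in the ratio of the 2 arms of this hairpin (log2 ratio -4.74 ± 0.48 against -8.40 ± 0.14, SD, n = 4 and 3).

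The hypoxia-induced miR-210 had the same pattern. miR-210-5p (hairpin at chr7:141221384-141221493, minus strand, in no annotated host gene) stood at 31, 112 and 91 CPM in Cre and 843, 1166, 622 and 891 CPM in the knockout. The rise was 10.3-fold (log2 fold change 3.36 ± 0.41 SE, adjusted p = 2.85e-06 by edgeR), while miR-210-3p was at 0.28 (edgeR adjusted p = 0.322). For miR-92a-1-5p, from the miR-17-92 transcript Mir17hg, the levels were 169, 181 and 46 CPM against 1350, 1166, 1027 and 1630 CPM. The fold was 9.18 (log2 fold change 3.20 ± 0.36 SE, adjusted p = 1.21e-06 by edgeR), and here the regular arm miR-92a-3p also rose, by 1.20 (edgeR adjusted p = 0.000216). These 3 passenger arms rested on 14 to 26 counts over the Cre libraries and 92 to 187 over the knockout.

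**Figure D3:**
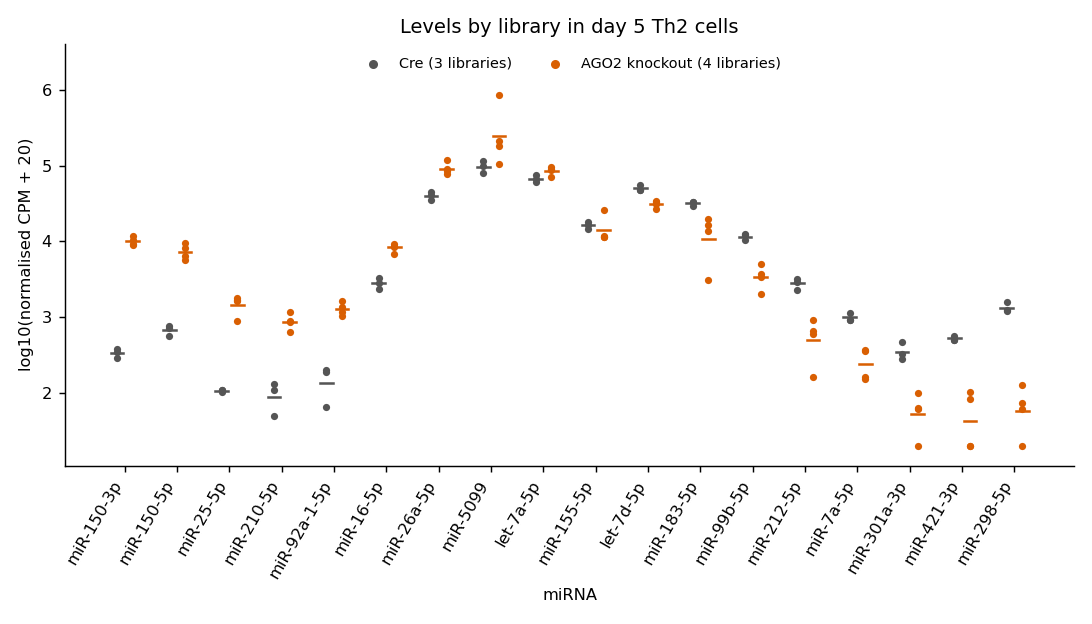
Level of 18 miRNAs in each library as log10(normalised CPM + 20), with dashes at the mean of these log values; grey points are the 3 Cre and orange points the 4 AGO2 knockout libraries. The groups are apart for miR-150-3p and the passenger arms at the left and for miR-298-5p at the right, and overlap for let-7a-5p, miR-155-5p and miR-5099.

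How far hairpins shifted between their arms depended on how the arms were labelled and filtered. Each hairpin's minor arm was divided by its major arm (the one with more counts over the 7 libraries, pseudocount 0.5), and the median log2 ratio of a library over 128 hairpins was -4.05, -4.39 and -4.00 in Cre. It was -3.37, -2.36, -3.80 and -3.94 in knockout libraries D, E, F and G. The difference of 0.78 had p = 0.0571 in the two-sided exact permutation test, the smallest possible, and fell to 0.46 without library E. Knockout libraries lay all above Cre in 22 hairpins (17.2%) and all below in 4 (3.12%), but where the minor arm had 0 counts the pseudocount and the depth set the ratio. Among the 30 hairpins whose minor arm averaged at least 10 counts, a filter chosen after the data were seen, the difference was 0.017 (exact permutation p = 0.800). In that set the knockout was all above in 5 hairpins (16.7%), which were miR-25, miR-210, miR-30c-1, miR-92a-1 and miR-21a, and all below in 2 (6.67%), miR-150 and miR-23a.

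Both the labels and that filter use the knockout counts. miR-25-5p, miR-210-5p and miR-92a-1-5p passed the filter through the knockout, and in miR-150 and miR-23a the knockout counts decided which arm was called minor. The arms were therefore also labelled, and filtered at a mean of 50 counts in the minor arm, by the 4 wild-type Th2 libraries of day 7, which share no library with this comparison; this was chosen after the data were seen. Over the 52 hairpins so chosen the median log2 ratio was -2.20 ± 0.28 in the knockout and -2.87 ± 0.18 in Cre (SD, n = 4 and 3). The difference of 0.67 had an exact permutation p = 0.0571, was 0.60 without library E, and was 0.44 (exact permutation p = 0.171) with all libraries thinned to the depth of E. Knockout libraries lay all above Cre in 8 hairpins (15.4%), which were miR-7a-1, miR-30c-1, miR-106b, miR-92a-1, miR-23a, miR-27b, miR-150 and miR-21a, and all below in 1 (1.92%), miR-674. The minor arms of miR-7a-1, miR-106b and miR-27b had only 5 to 7 counts over the Cre libraries. Some minor arms of the 52 were near 0 in both groups. Examples are miR-501-5p (0 counts in Cre and 0 in the knockout), miR-1839-3p (2 and 0) and miR-30d-3p (1 and 2). In such hairpins the pseudocount and the depth set the ratio here too. With labels and a filter of 10 counts from the Cre libraries the difference was 0.18 over 26 hairpins (exact permutation p = 0.514).

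By single arms, edgeR tested both arms of 29 hairpins, and the minor arm had the higher log2 fold change in 13 and the lower in 16. With arms labelled by the wild-type libraries the split was 18 and 11, and with Cre labels 17 and 12. Both arms rose in 5 hairpins and both fell in 3. Among the 5, the minor arms of miR-92a-1, miR-125a, miR-16-2 and miR-30e reached the cut of 251 CPM in no Cre library. They were tested only through the knockout, where they are high. The 3 that fell were miR-212, miR-425 and miR-669o, whose minor arms passed the filter for testing only through Cre. These counts of hairpins therefore do not show whether arms moved together. Opposite calls were seen in 1 hairpin. That hairpin was miR-30c-1, where miR-30c-1-3p rose by 1.43 and miR-30c-5p, which a second locus also makes, fell by 1.22 on the log2 scale. miR-30c-1-3p passed the filter for testing only through the knockout, and without Cre library C its call was lost (edgeR adjusted p = 0.0514). In miR-21a the passenger miR-21a-3p rose by 1.02 and miR-21a-5p, the arm known from activated T cells, was at 0.05 (edgeR adjusted p = 0.849). In miR-23a the 5p arm rose by 1.90 and the 3p arm was at -0.10, so the arm that is usually kept was the one not called.

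**Figure D4:**
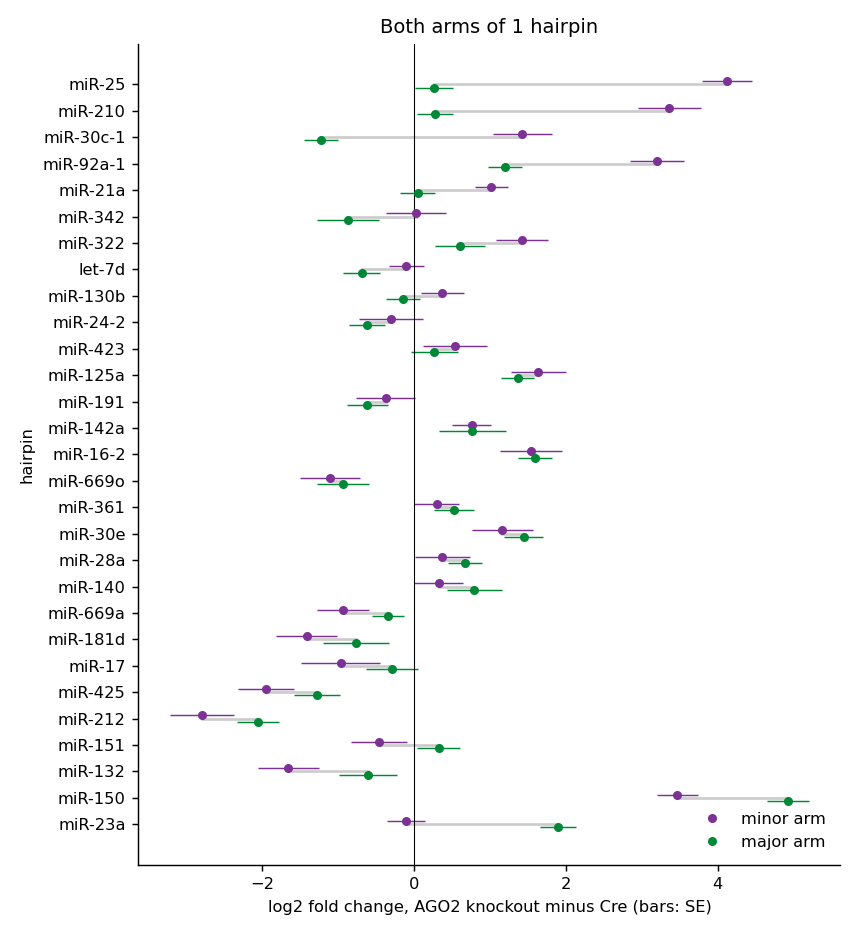
Log2 fold change (knockout minus Cre, bars are SE) of the minor and the major arm (by counts over the 7 libraries) of the 29 hairpins with both arms tested, ordered by their difference. The arms part at the top, from 4.12 against 0.27 in miR-25, and at the bottom in miR-150 and miR-23a, whose labels turn when they are set by the Cre or the wild-type libraries.

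Among miRNAs kept in naive cells and lost on activation, 7 of 12 tested rose and 1 fell (24.2% and 27.5% of all tested), with a median of 0.79 that became -0.98 on the STD scale. Their summed level was 50906 to 60942 CPM in Cre and 113721 to 151606 CPM in the knockout. Most of this sum was miR-26a-5p, with 7112 of 10046 counts in Cre and 10164 of 14211 in the knockout. miR-26a-5p, an abundant miRNA of resting cells, stood at 40822, 34896 and 44448 CPM against 119346, 89214, 77292 and 83926 CPM. All knockout libraries were above Cre, by 2.31-fold (log2 fold change 1.21 ± 0.28 SE, adjusted p = 0.00153 by edgeR). miR-26b-5p, with the same seed, rose by 0.80. Others were miR-30e-5p at 1.17, which lost its call without Cre A (highest edgeR adjusted p 0.117 over the left-out libraries) or Cre C, miR-142a-5p at 0.76 (0.112, lost without Cre B or C) and miR-29a-3p at 0.83 (0.218, lost without Cre A or B or knockout D, E or G). Of these, miR-30e-5p passed the filter for testing only through the knockout.

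Among miRNAs known to be induced by activation, 2 of 16 rose and 5 fell (24.2% and 27.5% of all tested), with a median of -0.30; the share that fell was near that of all miRNAs. The 5 that fell were miR-132-3p, miR-212-3p, miR-212-5p, miR-183-5p and miR-18a-5p. In wild-type cells of the other experiment, miR-132-3p was lower in Th2 at day 7 than in naive cells (log2 fold change -0.49), and the others were higher. miR-155-5p, which Th2 responses depend on, stood at 16553, 14782 and 17907 CPM in Cre and 11597, 25948, 11405 and 11713 CPM in the knockout. Its groups overlapped through library E alone (log2 fold change -0.14 ± 0.29 SE, adjusted p = 0.669 by edgeR). miR-182-5p, induced by IL-2, was at 68482, 59406 and 74474 against 73758, 26239, 54455 and 59435 CPM (edgeR adjusted p = 0.363).

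The cluster of miR-132 and miR-212, known to be induced through CREB, was lower in summed level (intron of 1700016P03Rik, chr11:75173388-75173747). Of its 4 arms 3 fell (27.5% of all tested), and the median of all 4 was -1.85. miR-212-5p went from 3222, 2917 and 2301 CPM to 590, 146, 649 and 913 CPM (log2 fold change -2.05 ± 0.27 SE, adjusted p = 6.37e-06 by edgeR). miR-212-3p and miR-132-3p, which share the seed AACAGUC, fell by 2.79 and 1.65. Neither reached the cut of 251 CPM in any knockout library, so both were tested only through Cre. miR-132-5p was at -0.60 (edgeR adjusted p = 0.192). The cluster's summed level was 3622 to 4679 CPM in Cre and 437 to 1391 CPM in the knockout, without overlap.

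Activation itself was read from the wild-type libraries of the other experiment, which share no library with this comparison. There edgeR called 138 of 333 miRNAs higher in Th2 cells at day 7 than in naive cells (41.4%) and 133 lower (39.9%). Of the 36 miRNAs higher in AGO2 knockout cells and tested there, 22 were lower in wild-type Th2 than in naive cells and 8 higher. Of the 42 that were lower in the knockout, 26 were higher and 11 lower. The median wild-type change was -0.67 for the first set, 0.70 for the second and -0.27 for the 74 miRNAs not called. In the cluster of miR-132 and miR-212, miR-212-3p and miR-212-5p were higher in wild-type Th2 cells (1.87 and 1.07). Its other arms miR-132-3p and miR-132-5p were lower (-0.49 and -0.92), so no induction of miR-132 was seen there at day 7. Across 152 miRNAs the 2 changes had Pearson's r = -0.311 and Spearman's rho = -0.342, as a description of miRNAs, which are not independent replicates.

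miR-298-5p was the miRNA that fell most. It stood at 1212, 1577 and 1230 CPM in Cre and 42, 0, 54 and 109 CPM in the knockout, from 246 and 8 counts. No knockout library reached the cut of 251 CPM, so miR-298-5p was tested only through Cre, where it was high. The difference was 18.6-fold (log2 fold change -4.22 ± 0.39 SE, adjusted p = 1.03e-07 by edgeR), and the log2 fold change was -4.87 without knockout G. Its hairpin lies with that of miR-296 on the minus strand within chr2:174267047-174267585, beside the imprinted Gnas genes. miR-296-3p did the reverse, from 1059, 1661 and 1253 CPM to 3500, 3061, 3297 and 2651 CPM (log2 fold change 1.23 ± 0.23 SE, adjusted p = 0.000216 by edgeR, and -0.59 on the STD scale). The 2 neighbours moved in opposite directions relative to the other miRNAs.

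miR-421-3p fell by 3.44 on the log2 scale (SE 0.52, edgeR adjusted p = 2.53e-05), from 491, 489 and 547 CPM to 84, 0, 0 and 65 CPM, and by 2.85 without knockout F. miR-130a-3p and miR-301a-3p, which share the seed AGUGCAA, fell by 2.77 and 2.59, from 67 and 59 counts to 6 and 6. The log2 fold change of miR-130a-3p was -2.16 without knockout F and -3.55 without knockout G. miR-130b-3p has the same seed and is far more abundant; it was at 2332, 2317 and 2620 CPM in Cre and 1982, 3207, 1811 and 2217 CPM in the knockout (log2 fold change -0.15, edgeR adjusted p = 0.557). Of 3 miRNAs with this seed, the 2 scarce ones fell and the abundant one was not called. miR-421-3p and these 2 scarce miRNAs would not have passed the filter for testing by the knockout libraries alone. They were selected through Cre, where they were high, so the contrast does not show that scarce members fall more.

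Abundant miRNAs fell too. miR-99b-5p, from the same cluster as miR-125a and let-7e, went from 12365, 10301 and 12188 CPM to 4976, 2041, 3405 and 3716 CPM (log2 fold change -1.67 ± 0.25 SE, adjusted p = 2.23e-05 by edgeR). miR-125a-3p and miR-125a-5p rose by 1.64 and 1.37, or -0.0683 and -0.39 on the STD scale. miR-125a-3p reached the cut of 251 CPM in no Cre library and was tested only through the knockout, where it was high. miR-183-5p, of the miR-183-96-182 cluster, went from 32692, 29508 and 32761 CPM to 20031, 3061, 13675 and 16255 CPM (log2 fold change -1.22 ± 0.37 SE, adjusted p = 0.00975 by edgeR). Its neighbours miR-96-5p and miR-182-5p were not called. miR-700-3p, miR-744-5p and miR-7a-5p fell without overlap, with log2 fold changes of -2.19, -1.98 and -1.89. miR-7a-5p would not have passed the filter for testing by the knockout libraries alone.

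Seed families held calls in both directions. Of 14 seeds shared by 2 or more tested miRNAs (41 miRNAs), 4 had calls in both directions, 1 had all members higher (miR-26a and miR-26b) and 2 had all lower (miR-132-3p with miR-212-3p, and miR-18a-5p with miR-18b-5p, which fell by 2.65 without knockout G against 1.95 with all libraries). miR-181a-5p, which tunes T cell receptor signalling, stood at 798, 656 and 478 CPM against 886, 2187, 3216 and 934 CPM and rose by 1.43 (-0.40 on the STD scale), or by 0.82 without knockout F. miR-181d-5p, with the same seed, went from 338, 349 and 296 CPM to 84, 146, 81 and 174 CPM, a fall by 1.41. No knockout library reached the cut of 251 CPM for miR-181d-5p, so it was tested only through Cre, where it was high. miR-132-3p, miR-212-3p and miR-18b-5p also passed the filter for testing only through Cre. In the let-7 family 2 of 9 rose and 2 fell, near the 24.2% and 27.5% of all tested, with a median of 0.08: let-7b-5p and let-7i-5p rose by 0.75 and 0.79, or -0.98 and -1.09 on the STD scale. let-7d-5p and miR-98-5p fell by 0.69 and 1.18. The calls of let-7b-5p (Cre B or C), let-7i-5p (Cre A or C) and let-7d-5p (Cre A, Cre C or knockout F) were lost without the libraries named, with edgeR adjusted p up to 0.134, 0.136 and 0.105.

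In the family of miR-92a, miR-92a-3p rose by 1.20 and miR-363-3p fell by 1.13, and miR-25-3p and miR-92b-3p were not called. Counted over both arms, the miR-30 family had 4 of 6 tested members higher and 1 lower, against 24.2% and 27.5% of all tested (median 1.30, or -0.41 on the STD scale). Of the 4, miR-30b-3p, miR-30c-1-3p and miR-30e-3p are 3p arms. The 2 members with a sequence that holds the seed GUAAACA moved apart, with miR-30e-5p higher and miR-30c-5p lower. miR-30e-5p and miR-30c-1-3p passed the filter for testing only through the knockout. Of the Cre libraries only B brought miR-30c-1-3p to the cut. miR-30b-3p and miR-30e-3p rose by 2.26 and 1.44. The miR-15/16 family, which restrains the T cell cycle, had 4 of 5 higher and 0 lower over both arms, against the same shares (median 1.54, or -0.15 on the STD scale). Of the 4, miR-15a-3p (12 counts in Cre), miR-16-2-3p (25 counts in Cre) and miR-322-5p (35 counts in Cre) passed the filter for testing only through the knockout. Of the Cre libraries only B brought miR-322-5p to the cut. By the shared seed AGCAGCA, 2 of 3 members rose and 1 was not called. miR-16-5p stood at 2853, 2317 and 3281 CPM against 8772, 6851, 8540 and 9366 CPM (log2 fold change 1.59 ± 0.23 SE, adjusted p = 1.50e-05 by edgeR). miR-15a-3p rose by 2.88 from 12 to 60 counts, and miR-322-5p by 1.42.

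**Figure D5:**
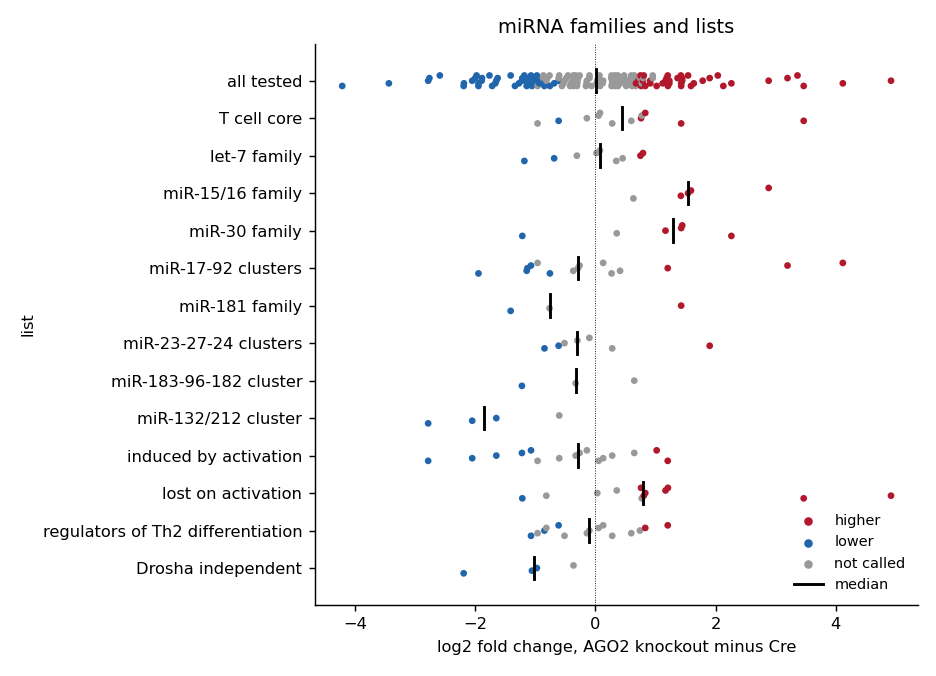
Log2 fold change (knockout minus Cre) of each tested miRNA by list, with vertical bars at the median; the top line holds all 153. Members of most lists spread to both sides of 0, while those of the miR-15/16 family lie at 0.63 or above and those of the cluster of miR-132 and miR-212 at -0.60 or below.

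Members of 1 transcript also parted. In Mir17hg (chr14:115043671-115044506) both miR-92a arms rose (a second locus also makes miR-92a-3p), miR-18a-5p fell by 1.07 and miR-17-5p and miR-20a-5p were not called; the call of miR-18a-5p was lost without Cre B or knockout D, F or G (edgeR adjusted p up to 0.158). In the miR-106b-25 cluster within Mcm7 (chr5:138165321-138165818) miR-25-5p rose while miR-93-5p and miR-106b-3p fell by 0.76 and 1.14. The call of miR-93-5p was lost without Cre B or knockout D (edgeR adjusted p up to 0.0571). Over the miR-17-92 clusters and their paralogs 3 of 15 rose and 5 fell, near the 24.2% and 27.5% of all tested, with a median of -0.29. As stated above, miR-25-5p and miR-92a-1-5p were tested only through the knockout.

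Of 7 tested arms of the miR-23-27-24 clusters 1 rose (miR-23a-5p) and 2 fell (miR-24-3p and miR-23b-3p), against 24.2% and 27.5% of all tested. miR-24-3p and miR-27a-3p limit Th2 cytokines; miR-24-3p fell by 0.61 (edgeR adjusted p = 0.0348), a call lost without Cre A, Cre C or knockout D or F (up to 0.162). miR-27a-3p stood at 2025, 2540 and 2301 CPM against 2952, 2624, 2162 and 3303 CPM (log2 fold change 0.28, edgeR adjusted p = 0.289). miR-23b-3p fell by 0.85 from 5308, 4201 and 3919 CPM to 2235, 2332, 2784 and 2499 CPM. Of 15 tested regulators of Th2 differentiation 2 rose and 3 fell (24.2% and 27.5% of all tested), with a median of -0.10. miR-146a-5p, which dampens NF-kB signalling, was at 7594, 5514 and 7199 against 12356, 3790, 12513 and 11235 CPM; library E was lowest and the other knockout libraries were above Cre.

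miRNAs made without Drosha had 3 of 4 tested members lower and 0 higher (27.5% and 24.2% of all tested), with a median of -1.02. miR-320-3p, from a capped hairpin, went from 6689, 8193 and 7336 CPM to 3627, 6123, 3000 and 3151 CPM (log2 fold change -0.98 ± 0.25 SE, adjusted p = 0.00278 by edgeR). miR-877-5p, spliced out as a mirtron, fell by 2.19 from 60 to 8 counts. With 8 counts it could not have passed the filter for testing by the knockout libraries alone. miR-484 fell by 1.06, or by 1.68 without knockout G, a call lost without Cre B or knockout D or F (edgeR adjusted p up to 0.0939). Of the miRNAs that need AGO2 slicing none was tested: miR-451a had 0 counts in the 7 libraries, and miR-486a-5p and miR-486b-5p had 1 count each in Cre and 3 each in the knockout.

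T cell markers were read in all libraries and markers of other cells were near 0. All 12 members of the T cell core were tested, 4 rose and 1 fell (24.2% and 27.5% of all tested), with a summed level of 78445 to 85546 CPM in Cre and 88098 to 120410 CPM in the knockout. Both myeloid markers, miR-223-3p and miR-223-5p, had 0 counts. The 9 endothelial and stromal markers had 14 counts in Cre and 11 in the knockout, with 5 of 9 at 0. The 11 epithelial, liver and muscle markers had 28 and 35 counts, with 4 at 0. Of the 6 red cell and platelet markers 3 were at 0 and nearly all counts were miR-96-5p, which activated T cells also make.

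miR-5099, the most abundant name in the files, is a doubtful miRNA entry. It took 13.5%, 9.85% and 10.9% of miRNA counts in Cre libraries A, B and C and 16.7%, 52.3%, 21.4% and 11.8% in knockout libraries D, E, F and G. The groups overlapped, and the mean difference of 14.1 percentage points (two-sided exact permutation p = 0.114) was 5.24 without library E. edgeR called it higher by 1.79 (adjusted p = 0.0103), or by 0.79 without knockout E, and without Cre B the call was lost (adjusted p = 0.0709). Leaving miR-5099 out of the scaling gave 80 calls, 78 of them among the 79. Of 6 doubtful entries tested 3 were higher and 2 lower, against 24.2% and 27.5% of all tested.

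To ask whether these changes were particular to Th2 cells, the AGO2 effect was set against that in naive cells of the same genotypes. The difference was called for 12 of 98 tested miRNAs (12.2%), 9 higher and 3 lower in Th2, or 8 and 12 with DESeq2's size factors. miR-150-3p had the smallest p: its effect was 4.88 in Th2 and -0.70 in naive cells (difference 5.58 with SE 0.57, edgeR adjusted p = 2.58e-07). In naive cells it stood at 11655 ± 7902 CPM in Cre and 7321 ± 2250 CPM in the knockout (SD, n = 3 and 4), so that the naive levels of both genotypes and the Th2 knockout level were all far above Th2 Cre. miR-150-5p differed as well, with effects of 3.43 and 1.17. For miR-26b-5p the effects were 0.72 and -1.04, and for miR-92a-3p 1.14 and -0.84. The count moved to 2 without naive Cre library C, and to 5 without Th2 Cre library C. The balance of directions was not stable. It was 2 higher and 8 lower without Th2 Cre library A, 4 and 7 without Th2 Cre library B, and 3 and 9 with no filter. Of the 12 miRNAs, 5, 6 and 5 were still called in these fits. In each fit without 1 knockout library, 9 were higher and 2 to 7 lower. The shallowest naive library held 596 miRNA counts.

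The loss of AGO1, AGO3 and AGO4 in Th2 cells at day 7 offered the second comparison, where genotype, day and experiment cannot be told apart. The 2 effects differed for 87 of 311 tested miRNAs (28.0%), 35 higher and 52 lower after AGO2 loss, or 52 and 42 with DESeq2's size factors. miR-150-3p, miR-150-5p and miR-25-5p led the first set: their effects were 4.86, 3.42 and 4.13 for AGO2 and -0.11, 0.31 and -0.08 for AGO1/3/4. The edgeR adjusted p of these differences was 1.34e-14, 3.48e-09 and 3.48e-09. miR-99b-5p, miR-212-3p and miR-212-5p led the second set, with -1.71, -2.84 and -2.08 for AGO2 and 0.44, 0.46 and 0.26 for AGO1/3/4. In this joint fit miR-150-3p was at 4309 ± 602 CPM in wild type and 3993 ± 504 CPM in AGO1/3/4 knockout at day 7 (SD, n = 4 and 4), between Th2 Cre at 494 ± 98.0 CPM and AGO2 knockout at 14604 ± 2098 CPM (SD, n = 3 and 4).

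Plain sequence features were close in the called and uncalled miRNAs, as a description with no test. The median length was 22 bases in the higher, lower and uncalled sets, and the median GC content was 47.8%, 47.8% and 47.6%. The first base was U in 13 of 28 higher, 13 of 29 lower and 29 of 59 uncalled miRNAs with a sequence.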

How the data were processed

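The deposited files hold raw counts per miRNA locus, 1 column per library, in whole numbers; the authors' libraries were TruSeq small RNA, GRCm38 per the submitters' processing notes, with aligner and counter not given in the sources used here. The labels call them single-end and the series text paired-end. Rows named STD (9) were left out of library sizes. Of 1966 mature names, 82 have several loci; the row with the highest total over all libraries was kept. The lowest chi-square per degree of freedom between replicates was 3.27, so no library was counted as a repeat.

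edgeR 4.0.16 was run on the counts with TMM, filterByExpr (min.count 10) and glmQLFTest, adjusted over all miRNAs tested (153 of 597 with a count, at least 98.3% of each library's counts), with a call at an adjusted p under 0.05. Differences of effects were fitted on 14 and 15 libraries. Arm ratios, miRNA per STD count and the miR-5099 share were compared by two-sided exact permutation tests in scipy 1.17.1. DESeq2 1.42.0 and limma 3.58.1 served as alternatives. The edgeR fits were also run on simulated counts with 1 common dispersion and no outlier library like E. That run therefore does not measure how reliable the calls are in these data. miRNAs named are the T cell core, the 10 called with the smallest p and the 10 with the largest fold in each direction (mean of at least 10 counts), the 10 most abundant, up to 4 per list with the smallest p, and, for each difference of effects, 3 in either direction by smallest p; 15 more, partners and neighbours of these, were added after their values were seen. Lists and comparisons were chosen with earlier results of these data known. miRNAs whose arms come from several loci, and copies such as miR-466a-3p and miR-466e-3p or miR-669a-3p and miR-669o-3p with identical counts, share reads.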

Additional observations from a re-analysis of the deposited data

Results flagged for a closer look

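Knockout library E lay apart from the other 3 knockout libraries for 10 of 89 named miRNAs and library measures, where chance gives about 5% of groups; each was in library E. Its CPM was 24927 for miR-142a-3p (others 4486 to 6215), 8018 for miR-142a-5p, 25948 for miR-155-5p, 12099 for miR-3963, 854530 for miR-5099, 7289 for miR-6236 and 4227 for miR-93-5p, all above the others. It was 3790 for miR-146a-5p, 875 for miR-25-5p and 1895 for miR-30b-3p, below the others.

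The effect of AGO2 loss on the log2 scale differed between Th2 and naive cells by 5.58 for miR-150-3p, 4.21 for miR-3962, 1.76 for miR-26b-5p, -4.04 for miR-700-3p, -7.60 for miR-351-5p and -2.75 for miR-6236. For miR-351-5p naive Cre had 0 counts, so the fitted value rests on the prior count and is no bound; miR-700-3p had 1 count there. The AGO2 effect differed from that of AGO1/3/4 loss in Th2 cells by 4.97 for miR-150-3p, 3.12 for miR-150-5p, 4.21 for miR-25-5p, -2.14 for miR-99b-5p, -3.31 for miR-212-3p and -2.34 for miR-212-5p.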

How the results depend on the processing

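Of 64 named miRNAs called in Th2 cells, 52 were called without any 1 library, and 42 under every alternative but STD scaling (both where fitted). Among the 52, miR-15a-3p and miR-16-2-3p were tested in only 4 of the 7 fits without 1 library. The 79 calls ranged from 70 to 87 when 1 library was left out. They fell to 44 in a fit on all 14 libraries of the AGO2 experiment (98 tested) and to 31 with libraries thinned to the lowest depth (82 tested), in both cases with fewer miRNAs to test. With STD scaling the value turned negative for let-7a-5p (-1.47), let-7b-5p (-0.98), let-7f-5p (-1.26), miR-125a-3p (-0.0683), let-7g-5p (-1.71), miR-142a-5p (-1.04), miR-125a-5p (-0.39), let-7i-5p (-1.09), miR-142a-3p (-1.23), miR-146a-5p (-1.07), miR-16-2-3p (-0.15), miR-16-5p (-0.11), miR-181a-5p (-0.40), miR-210-3p (-1.49), miR-21a-3p (-0.72), miR-21a-5p (-1.74), miR-25-3p (-1.49), miR-26a-5p (-0.57), miR-26b-5p (-0.93), miR-27a-3p (-1.45), miR-296-3p (-0.59), miR-29a-3p (-0.89), miR-30c-1-3p (-0.25), miR-30e-3p (-0.31), miR-30e-5p (-0.51), miR-322-5p (-0.29), miR-5099 (-0.37), miR-5100 (-0.50) and miR-92a-3p (-0.58).

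The 12 calls of the difference between Th2 and naive cells became 20 with DESeq2's size factors (8 higher, 12 lower), 2 without naive Cre B and C, and 2 to 18 when 1 library was left out. With the replicate block, the letter shared by naive and Th2 libraries, they became 3. Deviations of libraries with the same letter correlated at -0.431 to 0.193, and the letters were not taken as pairs. With naive libraries as shallow as 596 miRNA counts, these correlations cannot exclude that a letter marks the same animal. The cause of these changes in the number of calls was not tested. The 87 calls against AGO1/3/4 ranged from 74 to 94 when 1 library was left out, and were 125 with STD scaling (11 higher, 114 lower). The arm ratio difference ranged from 0.46 to 1.01 when 1 library was left out, and was 0.48 with libraries thinned. miRNA counts per STD count differed by -1.60 to -1.35.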

Other observations

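Of miRNAs called in Th2 cells but in no list described, miR-1198-5p and miR-3535 rose by 1.44 and 1.23 on the log2 scale, from 120 to 192 and from 92 to 143 counts. miR-425-5p and miR-425-3p, both arms of 1 hairpin, fell by 1.95 and 1.27, and their neighbours miR-191-5p and miR-191-3p were not called (log2 fold changes -0.61 and -0.37). miR-103-3p, a regulator of insulin signalling in other tissues, stood at 1350, 1801 and 2073 CPM in Cre and 127, 1166, 757 and 261 CPM in the knockout and fell by 1.90. From the large Sfmbt2 family, miR-466b-3p, miR-466a-3p and miR-466e-3p rose by 1.12, 0.91 and 0.91, while miR-669o-5p, miR-669o-3p and miR-669a-3p fell by 1.10, 0.94 and 0.94. miR-466a-3p and miR-466e-3p had identical counts in every library, as had miR-669o-3p and miR-669a-3p.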
